A study of Rattus norvegicus with 16 samples.

Results

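Expression of 32 genes of the motile cilium was examined in rat ovaries by whole-genome array. The members came from a list of gene names. Each was found by that name in the scanner files, and the probe with the highest mean over 16 arrays stood for a gene with several probes. Of the 32 genes, 31 had a probe and 30 entered the tests, which covered 20183 features in all (a feature is a named gene, or a probe without a gene name). Hydin had no probe of that name. Spag17 was well above background on too few arrays of every group to be tested, and its signals are given below. The probes carrying the name Spag6 matched by accession the RefSeq gene Spag6l, while the probe named Spag6l in the files matched RefSeq Spag6 and was well above background on 0 arrays. Values for Spag6 therefore belong to the RefSeq gene Spag6l.

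The arrays came from female Jcl:SD rats, 1 array per ovary sample, in 4 groups of 4. Wild-type rats and BRCA1+/- rats, which keep 1 intact copy of the homologous recombination gene Brca1, received either olaparib, an inhibitor of the poly(ADP-ribose) polymerases, or vehicle. Olaparib was given under the skin once a day for 14 days at 50 mg/kg, starting at 3 weeks of age, and ovaries were collected 24 h after the last dose. The sources used here do not give the composition or dosing of the vehicle, the age of the vehicle rats, or the kind of Brca1 allele. All groups are whole ovaries, so the values are those of mixed cells. The comparisons ask how the members differ with olaparib in each genotype, with genotype under each treatment, and whether the olaparib difference depends on genotype.

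Motile cilia are built around an axoneme, a ring of doublet microtubules with a central pair. Rows of outer and inner dynein arms on the doublets generate the beat, radial spokes and central pair proteins regulate it, and the nexin-dynein complex and its rulers space these parts along the doublet. Dynein arms are assembled in the cytoplasm by dedicated factors before they enter the cilium. The forkhead factor Foxj1, with factors of the RFX family, switches much of this set on in multiciliated cells. In the female tract such cells line the oviduct, which in rodents lies wrapped around the ovary inside the bursa, whereas granulosa, theca and stromal cells of the ovary carry single primary cilia that do not beat.

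Values are log2 signals, meaning log2 of the processed array signal minus the log2 of the array's 75th percentile, so that 0 is the 75th percentile of an array. Signals of different probes are not compared with each other, because probes differ in brightness. On every array the defining genes of the ovary were present. Foxl2, the granulosa cell transcription factor, lay between 2.50 and 3.50, and Amh, the hormone of growing follicles, between 3.23 and 6.11. The FSH receptor gene Fshr lay between 0.24 and 1.77, and the oocyte genes Gdf9 and Zp3 between 0.48 and 2.69 and between 1.69 and 3.55. The 75th percentile of the processed signal ran from 202 to 566, between 55.5% and 60.7% of probes per array were well above background, and 0 spots were saturated. Arrays correlated with each other at a Pearson r of 0.902 to 0.992 over the 20183 features tested. Replicates 1 and 2 of each group were on slide 1 and replicates 3 and 4 on slide 2. In whole tissue, fewer cells of a type and less RNA per cell cannot be told apart.

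Upstream sequences are shown for members of different roles because the members' signals moved together across arrays, and RFX factors, which act with Foxj1, are known to bind X-box motifs. RefSeq promoter windows of the GRCr8 build were matched by gene symbol for 27 of the 32 members, with Spag6 read through Spag6l. The 250 bases before each annotated start were searched on both strands. The X-box half-site GTTGCC occurred in 11 members (Capsl, Cfap44, Dnah11, Dnai2, Drc1, Hydin, Lrrc23, Sntn, Spag6, Tekt1 and Tekt2), which is 40.7% of the 27, against 10.8% of 27457 genes with such a window. The longer X-box consensus, whose arms GTNNCC and GGNAAC stand a pair of free bases apart and which can overlap the half-site, occurred in Dnah12, Spag6 and Zmynd10, 11.1% of the 27 against 1.09% of all genes. The forkhead core TGTTTAC occurred in Cfap43 and Sntn, 7.41% of the 27 against 3.54% of all genes. These are matches of letters, with no reading of binding. The following stretches of 100 bases hold a match in capitals, the half-site in Tekt1, Tekt2, Dnai2, Lrrc23 and Sntn and the longer X-box in Dnah12 and Zmynd10. A half-site on the opposite strand reads GGCAAC, and both X-box matches printed are on the opposite strand.
Tekt1 (chr10:57479122-57479221, minus strand): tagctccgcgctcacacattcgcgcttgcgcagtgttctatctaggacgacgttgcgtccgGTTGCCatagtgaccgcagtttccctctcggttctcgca
Tekt2 (chr5:143907725-143907824, minus strand): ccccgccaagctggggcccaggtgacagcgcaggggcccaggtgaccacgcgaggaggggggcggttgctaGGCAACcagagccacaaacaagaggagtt
Dnai2 (chr10:100258920-100259019, plus strand): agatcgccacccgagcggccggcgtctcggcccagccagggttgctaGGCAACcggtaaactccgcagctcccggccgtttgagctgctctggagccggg
Lrrc23 (chr4:159277765-159277864, minus strand): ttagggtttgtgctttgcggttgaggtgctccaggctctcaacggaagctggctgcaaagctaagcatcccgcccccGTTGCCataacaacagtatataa
Sntn (chr15:13956102-13956201, minus strand): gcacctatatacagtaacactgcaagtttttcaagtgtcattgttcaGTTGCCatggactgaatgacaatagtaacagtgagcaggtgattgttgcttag
Dnah12 (chr16:1944647-1944746, plus strand): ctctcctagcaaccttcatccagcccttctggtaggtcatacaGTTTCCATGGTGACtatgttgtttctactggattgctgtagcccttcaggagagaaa
Zmynd10 (chr8:117098929-117099028, plus strand): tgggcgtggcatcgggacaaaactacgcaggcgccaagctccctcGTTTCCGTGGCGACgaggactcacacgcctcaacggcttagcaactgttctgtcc
In Tekt1, Tekt2 and Lrrc23 the match began 39, 29 and 23 bases before the start, and in Dnai2 and Sntn 55 and 64 bases before it. The longer X-box began 62 bases before the start in Dnah12 and 55 in Zmynd10. Foxj1, Rsph1, Cfap52, Tppp3 and Spa17 had no entry.

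The signals of the members did not follow the 4 groups. They read high on 6 arrays: WT olaparib replicates 1 and 3, BRCA1+/- vehicle replicates 3 and 4, and BRCA1+/- olaparib replicates 3 and 4. For 29 of the 31 members these 6 arrays were the 6 highest of the 16, while 3.24% of all features had every one of the 6 above the other 10. Those 6 arrays were picked on the members' own signals, so this share describes the members and tests nothing. The exceptions were Dnah5 and Dnah7. No wild-type vehicle array was among the 6, whereas each of the other groups contributed 2. All 31 members were well above background on each of the 6 arrays. On the other 10 arrays the number well above background was between 18 and 26.

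**Figure D1:**
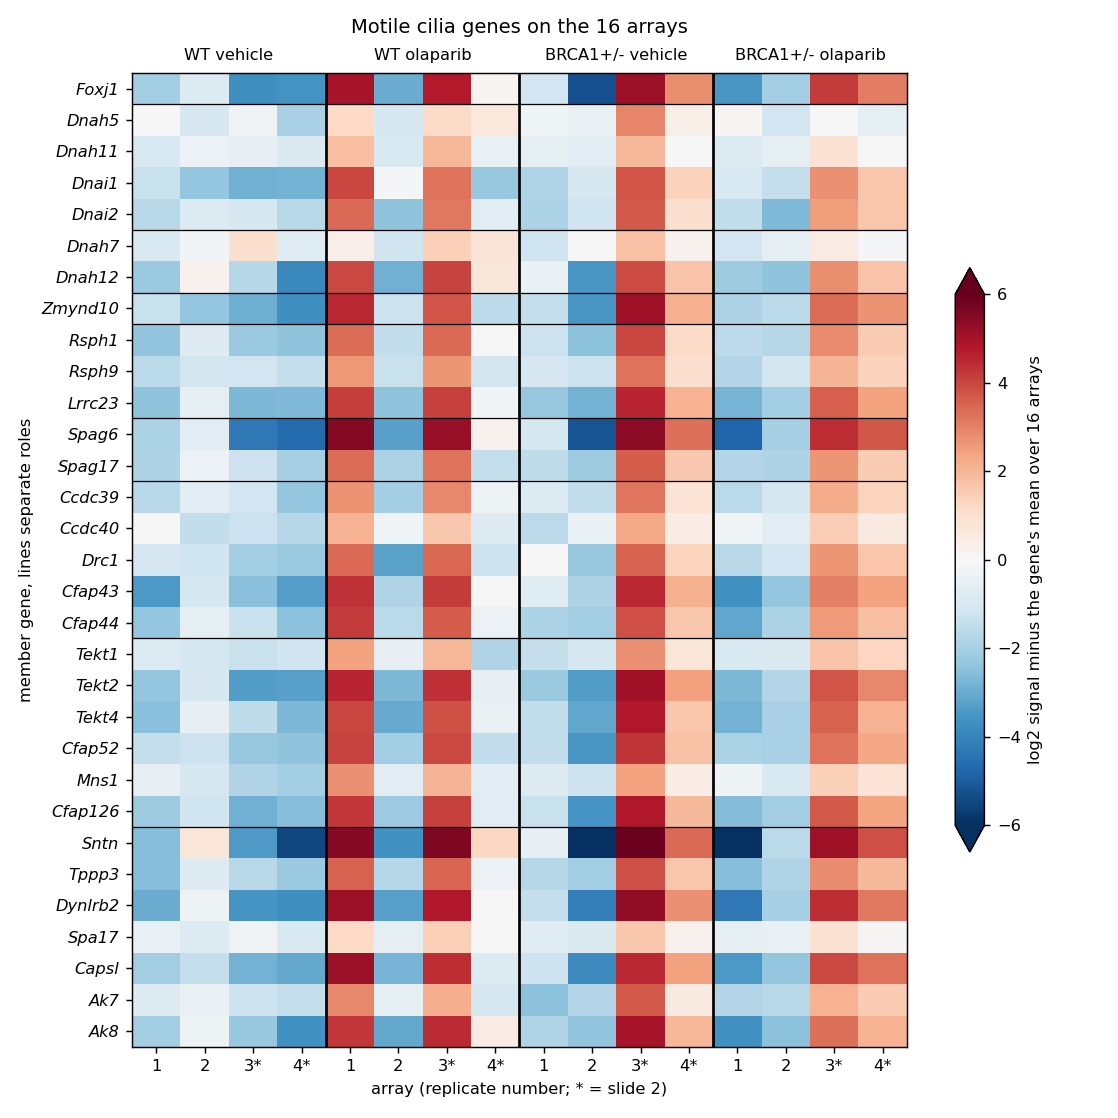
Heat map of the 31 members (rows, grouped by role) on 16 arrays (columns, 4 per group, an asterisk marking slide 2), with colour giving the log2 signal minus that gene's mean over the 16 arrays. WT olaparib 1 and 3, BRCA1+/- vehicle 3 and 4 and BRCA1+/- olaparib 3 and 4 are red for nearly all rows, and no wild-type vehicle array is.

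The median over the members of the log2 signal centred on each gene's mean summarises each array. In wild-type rats it was -1.84, -0.80, -1.80 and -2.41 on vehicle arrays 1 to 4, and 3.96, -1.92, 3.49 and -0.41 on olaparib arrays 1 to 4. In BRCA1+/- rats it was -1.31, -2.13, 3.88 and 1.61 with vehicle and -1.87, -1.75, 2.78 and 1.69 with olaparib. The high arrays were thus not equally high. BRCA1+/- vehicle replicate 3 exceeded replicate 4 for 31 of 31 members, by a median of 2.41 (1.35 to 3.14), and it was the highest of all arrays for 24 members. BRCA1+/- olaparib replicate 3 exceeded replicate 4 for 31 of 31, by a median of 0.90 (0.41 to 1.45). WT olaparib replicates 1 and 3 were close, with a median difference of 0.11 (-1.01 to 0.74) that was positive for 21 members. By this median, 3 others were intermediate between the high and low arrays. For 12 of the 31 members WT vehicle 2, WT olaparib 4 and BRCA1+/- vehicle 1 lay below the 6 high arrays and above the remaining 7. The other members did not show this order, and for Tekt1 WT olaparib 4 was the lowest of all arrays. These 3 arrays too were picked on the members' own signals, so the count tests nothing. The share of all features with this order was not counted.

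The spread within a group differed between groups. Among the 31 members the median SD was 0.76 in wild-type with vehicle, against 2.94 in wild-type with olaparib, 2.87 in BRCA1+/- with vehicle and 2.64 in BRCA1+/- with olaparib (n = 4 each). Over all features tested the corresponding median SDs were 0.40, 0.43, 0.37 and 0.33. Wild-type with vehicle had the smallest SD for 29 members and BRCA1+/- with olaparib for the other 2. The range over 16 arrays ran from 2.52 for Spa17 to 13.66 for Sntn, with a median of 6.86 against 1.67 for all probes, and 20 of the 31 members were in the top 1% of probes by SD. The slides bore on the genotypes differently. In BRCA1+/- rats the slide 2 arrays lay above the slide 1 arrays for 29 of 31 members, as they did for 9.35% of all features, and in wild-type rats the slides overlapped for 31 of 31.

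Foxj1, the switch of motile ciliogenesis, followed the common order closely. Foxj1 in wild-type rats read -2.93, -1.69, -4.58 and -4.47 with vehicle and 4.06, -3.89, 3.85 and -0.75 with olaparib. Foxj1 in BRCA1+/- rats read -2.07, -6.17, 4.24 and 1.91 with vehicle and -4.40, -2.92, 3.30 and 2.18 with olaparib. The 6 high arrays lay between 1.91 and 4.24 and the other 10 at or below -0.75. With olaparib, wild-type replicate 4 was also above all vehicle arrays, replicate 2 lay among them, and the groups therefore overlapped. The wild-type olaparib difference for Foxj1 was 4.23 ± 2.32 (log2, SE, here and below), with a 95% interval of -0.74 to 9.21. A second Foxj1 probe, well above background on all 16 arrays, gave a difference of 1.01 and also had the 6 high arrays on top. The files gave no position for the Foxj1 probe used.

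**Figure D2:**
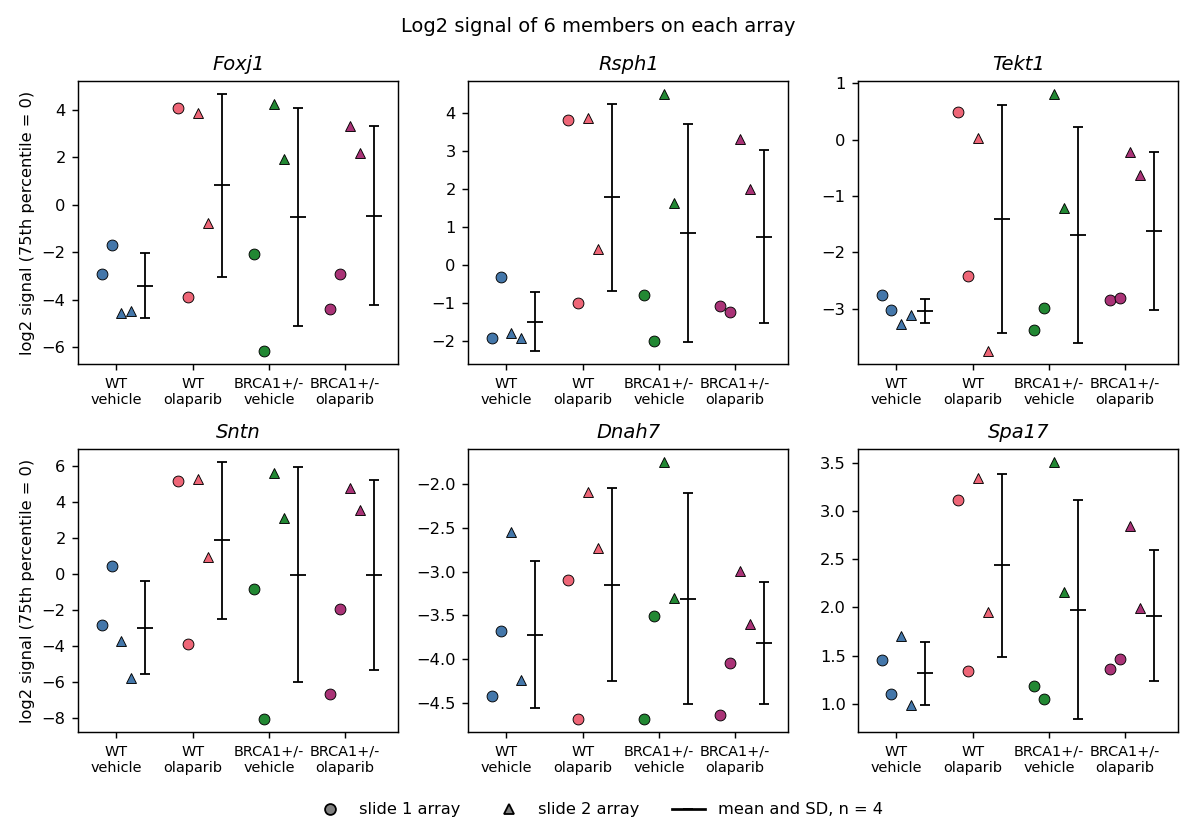
Log2 signal (0 is the 75th percentile of an array) of Foxj1, Rsph1, Tekt1, Sntn, Dnah7 and Spa17 on each array, circles for slide 1 and triangles for slide 2, with the group mean and SD (n = 4) beside the points. Each panel has its own scale. In every group except wild-type with vehicle, Foxj1, Rsph1, Tekt1 and Sntn split into 2 high arrays and 2 lower ones, while Dnah7 and Spa17 span the narrowest ranges of these 6 genes.

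Outer dynein arms carry heavy chains such as Dnah5 and Dnah11 and intermediate chains such as Dnai1 and Dnai2. Dnai1 in wild-type rats read -5.28, -6.23, -6.80 and -6.76 with vehicle and 0.058, -4.07, -0.68 and -6.22 with olaparib. Dnai1 in BRCA1+/- rats read -5.75, -4.88, -0.15 and -2.56 with vehicle and -4.84, -5.35, -1.19 and -2.26 with olaparib. Its probe, at chr5:59054173-59054232 of the rn4 build, was well above background on 0 wild-type vehicle arrays and 3 arrays of every other group. WT olaparib 1 and 3 and BRCA1+/- vehicle 3 were the brightest, and WT olaparib 4 lay among the vehicle arrays. Because the wild-type vehicle signal is only a bound, the fold was taken against that bound. The WT olaparib mean, which includes an array not well above background, was 8.32-fold above it. The fitted difference was 3.54 ± 1.43 (unadjusted p 0.0261, limma). Dnah5 departed from the common order. Dnah5 in wild-type rats read -4.59, -5.50, -4.76 and -6.48 with vehicle and -3.35, -5.51, -3.40 and -3.92 with olaparib. Dnah5 in BRCA1+/- rats read -4.80, -5.01, -1.61 and -4.18 with vehicle and -4.40, -5.68, -4.51 and -5.14 with olaparib. BRCA1+/- vehicle 3 stood well above all other arrays, and BRCA1+/- olaparib 3 and 4 lay below olaparib 1 of the same group. The wild-type olaparib difference was 1.29 ± 0.70, with 3 of 4 olaparib arrays above all vehicle arrays. Of the 4 Dnah5 probes, 1 was well above background on 0 arrays and gave -0.37, and the others gave 1.29 to 1.90. Dnah11 and Dnai2 were well above background on all 16 arrays and had the 6 high arrays on top, over ranges of 2.92 and 6.31.

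Inner dynein arms were represented by the heavy chains Dnah7 and Dnah12. Dnah7 in wild-type rats read -4.42, -3.68, -2.55 and -4.23 with vehicle and -3.10, -4.68, -2.09 and -2.73 with olaparib. Dnah7 in BRCA1+/- rats read -4.69, -3.50, -1.75 and -3.31 with vehicle and -4.64, -4.04, -2.99 and -3.60 with olaparib. BRCA1+/- vehicle 3 was again the highest, but WT vehicle 3 exceeded 4 of the 6 arrays that were high for other members. At 0.57 ± 0.64, with a 95% interval of -0.80 to 1.95, its wild-type olaparib difference was the smallest among the members. Its 3 probes disagreed in size: the 2 dimmer ones gave 0.89 and 3.69 and did have the 6 high arrays on top. Dnah12 in wild-type rats read -4.47, -1.96, -3.92 and -6.07 with vehicle and 1.74, -5.12, 1.85 and -1.54 with olaparib. Dnah12 in BRCA1+/- rats read -2.62, -5.71, 1.69 and -0.52 with vehicle and -4.36, -4.63, 0.55 and -0.53 with olaparib. The 6 high arrays lay between -0.53 and 1.85 and all others at or below -1.54, with WT olaparib 4 and WT vehicle 2 next. Its wild-type olaparib difference was 3.34 ± 1.79. Of 7 Dnah12 probes, 2 were well above background on 0 arrays and gave 0.09 and -0.11, and the remaining 5 gave 1.78 to 4.16.

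Zmynd10 is a cytoplasmic factor needed to preassemble dynein arms. Zmynd10 in wild-type rats read -5.21, -6.21, -6.79 and -7.57 with vehicle and 0.63, -5.14, -0.091 and -5.45 with olaparib. Zmynd10 in BRCA1+/- rats read -5.29, -7.36, 1.20 and -1.74 with vehicle and -5.74, -5.49, -0.51 and -1.16 with olaparib. The gap between the lowest of the 6 high arrays and the highest of the others, 3.40, was the widest among the members. On wild-type vehicle arrays the probe was well above background 0 times, so the fold was taken against a bound. The WT olaparib mean, which includes an array not well above background, was 9.55-fold above that bound (fitted difference 3.93 ± 1.87). Zmynd10 was well above background on 3 WT olaparib arrays and 2 arrays of each BRCA1+/- group, and it entered the test only through WT olaparib, so its direction there is not independent of the filter. That mean rests on replicates 1 and 3, since replicates 2 and 4 read -5.14 and -5.45.

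Radial spokes carry the mechanical signal from the central pair to the dyneins. Rsph1 and Rsph9 belong to the spoke head, and Lrrc23 is a spoke component. Rsph1 in wild-type rats read -1.92, -0.32, -1.78 and -1.93 with vehicle and 3.81, -1.01, 3.87 and 0.42 with olaparib. Rsph1 in BRCA1+/- rats read -0.80, -1.99, 4.49 and 1.63 with vehicle and -1.09, -1.24, 3.31 and 2.01 with olaparib. WT vehicle 2, at -0.32, stood above the other vehicle arrays, which lay between -1.93 and -1.78. Olaparib replicates 1, 3 and 4 exceeded all vehicle arrays of wild-type rats and replicate 2 did not. Rsph1 had a wild-type olaparib difference of 3.26 ± 1.45, with a 95% interval of 0.16 to 6.35 and an unadjusted p of 0.0404 (limma). Its probe lies at chr20:9633454-9633513 of rn4. Rsph9 in wild-type rats read -2.12, -1.59, -1.65 and -1.92 with vehicle and 2.11, -1.81, 2.16 and -1.57 with olaparib. Rsph9 in BRCA1+/- rats read -1.51, -1.79, 2.77 and 0.52 with vehicle and -2.25, -1.58, 1.54 and 0.89 with olaparib. Here the 10 lower arrays were tight, from -2.25 to -1.51, and the 6 high arrays lay between 0.52 and 2.77. Rsph9 had a wild-type olaparib difference of 2.04 ± 1.16. Lrrc23 had the same order over a range of 7.43, and both of its probes agreed in size, at 3.52 and 3.56.

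Spag6 and Spag17 belong to the central pair apparatus, as does Hydin, which could not be read. Spag6 in wild-type rats read -4.68, -3.44, -7.05 and -7.41 with vehicle and 2.73, -6.05, 2.44 and -2.50 with olaparib. Spag6 in BRCA1+/- rats read -3.86, -7.96, 2.58 and 0.52 with vehicle and -7.59, -4.76, 1.64 and 0.93 with olaparib. The range of 10.68 was the second widest among the members, and 11 arrays were well above background. WT olaparib 2 lay among the vehicle arrays and replicate 4 above them. Its wild-type olaparib difference was 4.80 ± 2.57, and 2.33 from the other probe, which was well above background on 14 arrays. Spag17 was well above background on the 6 high arrays only. Its signals there were between -4.43 and -2.34, against -6.33 or lower on the other 10. The WT olaparib mean, with only 2 arrays well above background, was 1.89-fold above the bound for wild-type with vehicle.

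The rulers Ccdc39 and Ccdc40 set the spacing along the doublet, Drc1 is the base of the nexin-dynein regulatory complex, and Cfap43 and Cfap44 tether an inner dynein. Ccdc39 in wild-type rats read -3.91, -2.87, -3.39 and -4.53 with vehicle and 0.46, -4.28, 0.66 and -2.53 with olaparib. Ccdc39 in BRCA1+/- rats read -3.04, -3.71, 1.00 and -1.41 with vehicle and -3.85, -3.28, 0.012 and -0.87 with olaparib. All of the 6 high arrays lay at -1.41 or above, and the 3 intermediate arrays came next. Ccdc39 had a wild-type olaparib difference of 2.25 ± 1.22. Drc1 in wild-type rats read -3.90, -4.09, -4.98 and -5.12 with vehicle and 0.51, -6.11, 0.57 and -4.16 with olaparib. Drc1 in BRCA1+/- rats read -2.87, -5.19, 0.65 and -1.56 with vehicle and -4.54, -4.05, -0.23 and -1.22 with olaparib. WT olaparib 2, at -6.11, was the lowest of the 16 arrays although WT olaparib 1 and 3 were among the highest. Its wild-type olaparib difference was 2.22 ± 1.52, and -0.61 without the 6 high arrays. Ccdc40, Cfap43 and Cfap44 had the same 6 arrays on top, over ranges of 3.98, 8.17 and 7.29. Cfap43 and Ccdc40, with wild-type olaparib differences of 4.26 and 1.80, had unadjusted p-values of 0.0299 and 0.0399 (limma). Both probes were well above background on only 1 of 4 wild-type vehicle arrays, so these differences are taken against signals mostly not well above background. The Ccdc40 probe is placed on unassigned sequence in rn4.

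Tektins and other inner proteins line the lumen of the doublet microtubules. Tekt1 in wild-type rats read -2.76, -3.01, -3.27 and -3.12 with vehicle and 0.49, -2.41, 0.032 and -3.75 with olaparib. Tekt1 in BRCA1+/- rats read -3.37, -2.99, 0.81 and -1.20 with vehicle and -2.85, -2.80, -0.22 and -0.63 with olaparib. Its vehicle arrays in wild-type rats were tight, and WT olaparib 4 lay below all of them while replicate 2 lay above. The wild-type olaparib difference was 1.63 ± 1.01, and -0.042 without the 6 high arrays. Tekt2 in wild-type rats read -4.50, -3.14, -5.51 and -5.42 with vehicle and 2.38, -4.85, 2.22 and -2.68 with olaparib. Tekt2 in BRCA1+/- rats read -4.40, -5.51, 2.89 and 0.29 with vehicle and -4.86, -3.92, 1.61 and 0.71 with olaparib. The 6 high arrays were the only ones above 0, and the difference was 3.91 ± 2.05. Tekt4 in wild-type rats read -2.37, -0.38, -1.38 and -2.55 with vehicle and 4.15, -2.88, 3.97 and -0.28 with olaparib. Tekt4 in BRCA1+/- rats read -1.33, -3.00, 4.95 and 1.81 with vehicle and -2.71, -1.83, 3.66 and 2.21 with olaparib. The high arrays lay between 1.81 and 4.95, and WT olaparib 4 and WT vehicle 2 were next at -0.28 and -0.38. Its wild-type olaparib difference was 2.91 ± 1.90. Cfap52 in wild-type rats read -2.71, -2.49, -3.52 and -3.67 with vehicle and 2.81, -3.31, 2.72 and -2.73 with olaparib. Cfap52 in BRCA1+/- rats read -2.76, -4.73, 3.05 and 0.49 with vehicle and -3.14, -3.22, 1.98 and 1.05 with olaparib. WT olaparib 2 and 4 both lay among the vehicle arrays, so the difference of 2.97 ± 1.80 came from replicates 1 and 3. Mns1 and Cfap126 had the 6 high arrays on top over ranges of 4.78 and 8.33, and Mns1 had a wild-type olaparib difference of 2.19 (unadjusted p 0.0275, limma).

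The remaining members include proteins of the ciliary tip, light chains and enzymes. Sentan, encoded by Sntn, sits at the tip of motile cilia and had the widest range of all members. Sntn in wild-type rats read -2.85, 0.43, -3.72 and -5.77 with vehicle and 5.15, -3.92, 5.27 and 0.96 with olaparib. Sntn in BRCA1+/- rats read -0.81, -8.07, 5.59 and 3.09 with vehicle and -6.68, -1.93, 4.79 and 3.57 with olaparib. Even among low arrays it spread from -8.07 to 0.96, with WT olaparib 4, WT vehicle 2 and BRCA1+/- vehicle 1 at the upper end. Sntn had a wild-type olaparib difference of 4.84 ± 3.04, with a 95% interval of -1.67 to 11.35. Tppp3, a tubulin-binding protein of ciliated epithelia, was bright throughout. Tppp3 in wild-type rats read 0.78, 2.53, 1.66 and 1.11 with vehicle and 6.86, 1.61, 6.80 and 2.98 with olaparib. Tppp3 in BRCA1+/- rats read 1.61, 1.23, 7.19 and 4.96 with vehicle and 0.77, 1.51, 6.17 and 5.26 with olaparib. On the 6 high arrays it read 4.96 or more and the others at 2.98 or less, and the difference was 3.04 ± 1.55. Dynlrb2 encodes a roadblock-type dynein light chain. Dynlrb2 in wild-type rats read -3.27, -0.62, -3.85 and -3.96 with vehicle and 4.83, -3.58, 4.52 and -0.31 with olaparib. Dynlrb2 in BRCA1+/- rats read -1.72, -4.42, 5.03 and 2.43 with vehicle and -4.59, -2.32, 4.14 and 2.86 with olaparib. WT olaparib 4 and WT vehicle 2 lay between the high and low arrays, and the difference was 4.29 ± 2.37. Spa17, a protein of sperm and cilia, was bright on all arrays and varied least. Spa17 in wild-type rats read 1.46, 1.11, 1.70 and 0.99 with vehicle and 3.11, 1.34, 3.34 and 1.96 with olaparib. Spa17 in BRCA1+/- rats read 1.19, 1.05, 3.51 and 2.16 with vehicle and 1.36, 1.46, 2.84 and 2.00 with olaparib. The 6 high arrays were still the 6 highest, but by a gap of only 0.044. Its difference was 1.12 ± 0.55. Capsl, a calcium-binding protein, and the adenylate kinases Ak7 and Ak8 had the 6 high arrays on top over ranges of 8.98, 6.15 and 8.61.

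Olaparib in wild-type rats was compared first. The 30 members that passed the filter had a higher mean with olaparib than with vehicle, by a median log2 difference of 3.09 (from 0.57 for Dnah7 to 4.84 for Sntn), while the median over all features was -0.07. The filter itself favours this direction for some of them. Zmynd10, Ak7 and Ak8 passed only through WT olaparib, and 9 members in all (also Dnah5, Dnai1, Spag6, Ccdc40, Cfap43 and Capsl) were well above background on under 3 wild-type vehicle arrays. The other 21, which wild-type vehicle arrays alone would have let pass, were all higher too, with a median of 2.97. None passed the test, as limma called 0 of 30 at an adjusted p under 0.05 and 0% of all features. At an unadjusted p under 0.05 there were 5 of 30 members (Dnai1, Mns1, Cfap43, Ccdc40 and Rsph1), all of them higher, against 4.33% of all features in either direction and 2.26% higher. Of these 5, Dnai1, Cfap43 and Ccdc40 are among the 9 dim ones. That count was not stable. It was 0 without WT vehicle 4, WT olaparib 1 or WT olaparib 3, when 3.36%, 1.75% and 3.90% of features had such a p. It was 1 without WT vehicle 3 and 3 without WT vehicle 1, against 6.21% and 5.42%. It was 9 without WT olaparib 4 or BRCA1+/- vehicle 3, against 10.5% and 5.33%. With slide as a block it was 9, against 5.65%. With only the compared groups in the fit it was 17, against 3.78%, and without WT olaparib 2 it was 27, against 8.17%. The adjusted p of the members ran from 0.965 to 0.987. Groups overlapped for all 30 members, while 0.56% of all features lay wholly higher and 0.585% wholly lower with olaparib. The SE of a member's difference was 0.546 to 3.04. The median of the members was 2.01 within slide 1 and 3.57 within slide 2. It was 1.73 with normexp background correction, and 0.67 without the 6 high arrays, an alternative chosen after seeing the data, in which wild-type with olaparib keeps replicates 2 and 4.

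By role, the medians of the wild-type olaparib differences were 1.72 for the 4 outer arm genes and 1.95 for the 2 inner arm genes. They were 3.26 for the 3 radial spoke genes, 2.25 for the 5 ruler and nexin-dynein genes and 2.94 for the 6 genes of the doublet interior. The 7 other ciliary genes had a median of 3.60. Foxj1, Zmynd10 and Spag6, the only tested genes of their roles, had 4.23, 3.93 and 4.80. Genes of a role differed among themselves, from 0.57 to 3.34 in the inner arm and from 2.04 to 3.52 in the radial spoke.

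In BRCA1+/- rats the members did not differ in one direction with olaparib. The median was -0.17, from -1.14 for Cfap43 to 0.16 for Cfap52, with 22 members lower and 8 higher, and the median over all features was 0.02. In limma 0 of 30 members and 0% of features passed an adjusted p under 0.05, and at an unadjusted p under 0.05 there were 0 members against 1.18% of features. Foxj1 averaged -0.52 ± 4.58 with vehicle and -0.46 ± 3.77 with olaparib (SD, n = 4), a difference of 0.061 ± 2.32 with a 95% interval of -4.91 to 5.03. The differences of Rsph1 and Tekt1 were -0.089 ± 1.45 and 0.064 ± 1.01. Both groups held 2 high and 2 low arrays, with slide 2 high in each. The sign of the median depended on single arrays: it was 0.86 without BRCA1+/- vehicle 3, 0.15 without vehicle 4, 0.47 without olaparib 1 and 0.45 without olaparib 2. Without vehicle 2, olaparib 3, olaparib 4 or vehicle 1 it was -1.19, -1.10, -0.78 and -0.76. These groups overlapped for all 30 members, and 0.5% of features lay wholly higher and 0.614% wholly lower with olaparib.

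Genotype was compared with vehicle. The 30 members that passed the filter had a higher mean in BRCA1+/- than in wild-type rats, by a median of 2.28 (0.41 for Dnah7 to 3.59 for Cfap43), against -0.06 over all features. Again limma called 0 of 30 members and 0% of features at an adjusted p under 0.05. At an unadjusted p under 0.05 there were 0 members, the smallest being 0.0585 for Dnai1, against 5.51% of features. Foxj1, Rsph1 and Tekt1 differed by 2.89 ± 2.32, 2.32 ± 1.45 and 1.35 ± 1.01. Within the slides the medians went in opposite directions, -0.44 on slide 1 with 6 of 30 members higher, and 5.13 on slide 2 with 30 of 30 higher. The median was 1.06 without BRCA1+/- vehicle 3, 1.18 with normexp and -0.14 without the 6 high arrays. At an unadjusted p under 0.05 there were 7 members without BRCA1+/- vehicle 2, 4 without BRCA1+/- vehicle 1 and 27 within slide 2. The shares of all features in these settings were 5.57%, 5.97% and 4.67%. The 21 members measured on most wild-type vehicle arrays had a median of 2.23. BRCA1+/- and wild-type vehicle arrays overlapped for all 30 members, with 1.26% of features wholly higher and 2.19% wholly lower in BRCA1+/-.

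With olaparib the members averaged lower in BRCA1+/- than in wild-type rats. All 30 had a negative difference, with a median of -0.89 (-1.93 for Sntn to -0.21 for Drc1) against 0.02 over all features. At the adjusted threshold limma called 0 of 30 members and 0% of features, and at an unadjusted p under 0.05 there were 0 members against 0.922% of features. Foxj1, Rsph1 and Tekt1 differed by -1.28 ± 2.32, -1.03 ± 1.45 and -0.21 ± 1.01. Each group held 2 high arrays, those of wild-type rats being the higher. Again the slides opposed each other, with a median of -2.92 on slide 1 and 0.98 on slide 2. Without single arrays the median ran from -1.95 to -0.15, the latter without BRCA1+/- olaparib 1. It was -0.19 without WT olaparib 1, -0.23 without WT olaparib 3 and -0.31 without BRCA1+/- olaparib 2. Leaving out WT olaparib 2, BRCA1+/- olaparib 3, WT olaparib 4 or BRCA1+/- olaparib 4 gave -1.95, -1.79, -1.55 and -1.43. The groups overlapped for all 30 members, against 0.327% of features wholly higher and 0.263% wholly lower in BRCA1+/-.

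Averaged over both genotypes, the olaparib difference of the members had a median of 1.36 (0.033 for Dnah7 to 2.42 for Sntn), with 30 of 30 positive. Limma called 0 of 30 members and 0% of features at an adjusted p under 0.05, and at an unadjusted p under 0.05 there were 0 members against 1.32% of features. The median was 0.89 without BRCA1+/- vehicle 2, 0.79 with normexp, where 28 of 30 were positive, and 0.27 without the 6 high arrays, where 23 of 30 were. Without BRCA1+/- vehicle 3, 6 members had an unadjusted p under 0.05, against 2.89% of features. The interaction subtracts the wild-type olaparib difference from the BRCA1+/- one, and it had a median of -3.36 (-5.40 for Cfap43 to -1.08 for Dnah7), with 30 of 30 negative and 0.08 over all features. None of the 30 members and 0% of features were called by limma. Dnah5, at -2.32, and Cfap43, at -5.40, had unadjusted p-values of 0.0336 and 0.0484 (limma), against 3.43% of features under 0.05. Both are among the 9 members well above background on under 3 wild-type vehicle arrays. Of the other 21 members, 0 had such a p, and with normexp 0 of all 30 did. Without single arrays the number of members under 0.05 ran from 0 to 5, the latter without WT olaparib 2, against 6.18% of features. For Foxj1, Rsph1 and Tekt1 the interaction was -4.17 ± 3.29, -3.35 ± 2.05 and -1.57 ± 1.43. Its median was -2.07 within slide 1, -3.99 within slide 2, -2.17 without BRCA1+/- vehicle 3, -2.04 with normexp and -0.55 without the 6 high arrays. The comparisons share arrays: wild-type with vehicle, which held none of the 6, enters the first, the third and the last 2.

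**Figure D3:**
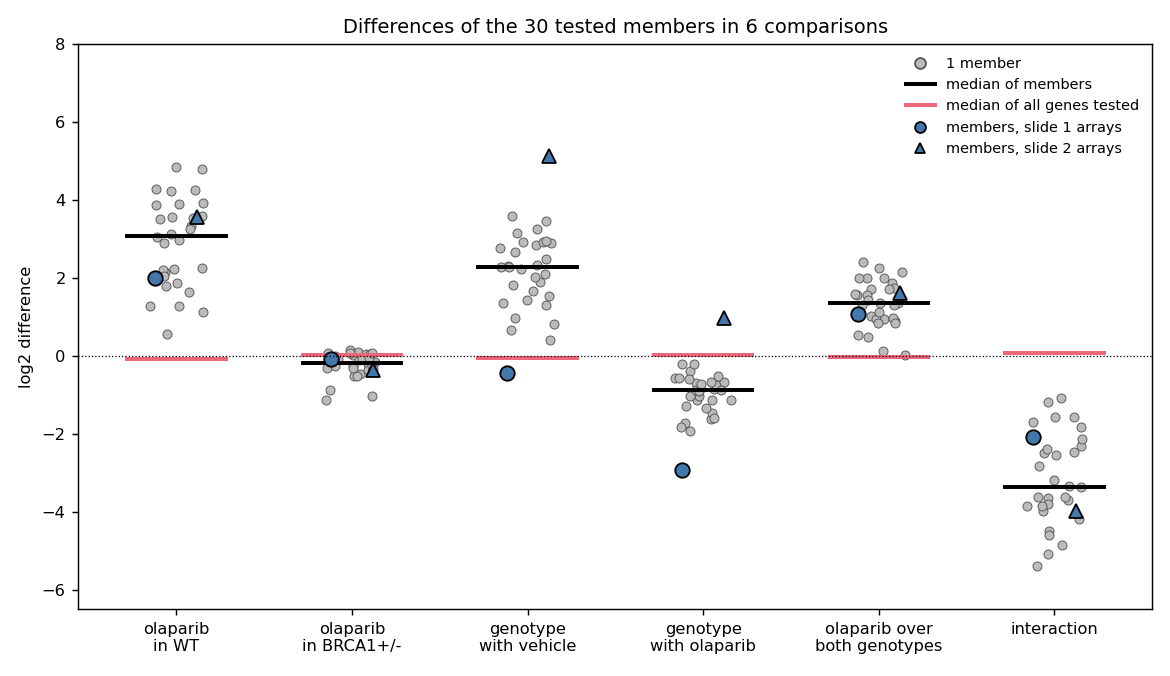
Log2 differences of the 30 tested members (grey points) in 6 comparisons, with the members' median (black line), the median of all 20183 features (red line) and the members' median within each slide (blue circle for slide 1, blue triangle for slide 2). The members lie above the red line for olaparib in wild-type rats and for genotype with vehicle, and around it for olaparib in BRCA1+/- rats, while the slide medians lie on opposite sides of 0 for both genotype comparisons.

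Other genes of the ciliary pathway showed the same arrays. From a list of 116 further motile cilia genes, 110 had a probe and 82 were tested. The 6 high arrays were the 6 highest for 77 of the 110, against 3.24% of all features. That share also stands beside the same count for each list below. The mean centred signal of the list was 0.90 to 2.89 on those arrays and -1.92 to -0.54 on the others. For olaparib in wild-type rats limma called 0 of 82. At an unadjusted p under 0.05 there were 18, all higher, against 4.33% of all features in either direction and 2.26% higher. The list's median was 2.40 with 82 of 82 positive. Of the 110 genes, 53 to 83 were well above background on wild-type vehicle arrays and 102 to 106 on the 6 high arrays. The filter can therefore favour this direction for some of the 82, and the list was not split by it. The same limit can apply to the lists below. Those with the smallest p were Cfap47, Spata17, Cfap70 and Kif9, at 1.34 ± 0.45, 1.93 ± 0.68, 1.47 ± 0.54 and 3.34 ± 1.27. In BRCA1+/- rats the olaparib median was -0.13. Limma called 0 of 82, and 0 had an unadjusted p under 0.05, against 1.18% of features. With vehicle the genotype median was 1.77, with 78 of 82 positive and 0 called. Unadjusted p-values fell under 0.05 for 2, against 5.51% of features.

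Dynein preassembly factors beyond Zmynd10 mostly had smaller differences. Among 18 of them on the array the 6 arrays were the highest for 8, and the list's mean centred signal was 0.42 to 1.71 on the 6 and -1.20 to -0.51 on the others. The median wild-type olaparib difference of the 16 tested was 0.34, with 0 called by limma and 0 at an unadjusted p under 0.05. Dnaaf3, Dnaaf6, Ccdc103 and Dnaaf8 had the smallest p, with 2.51 ± 1.27, 4.25 ± 2.15, 2.40 ± 1.30 and 1.31 ± 0.72. Dnaaf6 was well above background on only 7 arrays. Its 7 brightest arrays include no wild-type vehicle array, so its direction may not be independent of the filter. Regulators of multiciliated cell fate were mixed. Of 21 on the array the 6 arrays were the highest for 4, with a list mean of 0.28 to 1.03 on the 6 and at most -0.13 on the others. The median wild-type olaparib difference of the 16 tested was 0.038, and limma called 0. Unadjusted p-values fell under 0.05 for 2, against 4.33% of features. Tp73, which acts upstream of Foxj1, differed by 4.83 ± 2.09 and ranged from -8.02 to 1.07 over the arrays. Tp73 too was well above background on only 7 arrays. Its 7 brightest include no wild-type vehicle array, so its direction and its unadjusted p may not be independent of the filter. Rfx2 and Rfx3, RFX factors that act with Foxj1, differed by 1.99 ± 1.09 and 0.67 ± 0.26. Gmnc and Ccno, early regulators of centriole amplification, differed by 0.99 ± 0.61 and 0.57 ± 0.64. Mcidas was well above background on 0 arrays, and no probe was named Myb.

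Genes of intraflagellar transport and the primary cilium, which all ciliated cells use, had narrower ranges. The 6 arrays were the highest for 10 of 61, and the list's mean centred signal stayed between -0.26 and 0.39. Their median wild-type olaparib difference was 0.27 over 58 tested, of which limma called 0. Unadjusted p-values fell under 0.05 for 7, with 6 of those higher, against 4.33% of features in either direction and 2.26% higher. Bbs1, Rpgrip1l, Wdr35 and Dync2i1 had the smallest p, with 0.85 ± 0.31, 0.62 ± 0.23, 0.74 ± 0.29 and 0.70 ± 0.28. Ift88 and Arl13b, a transport protein and a membrane GTPase of cilia, differed by 0.26 ± 0.26 and -0.11 ± 0.26. The 16 arrays of Ift88 spanned -1.99 to -0.69.

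Genes of a list for oviduct secretory and glandular epithelium were high on the same arrays as the members. Many of them, such as Epcam and Cdh1, are general epithelial genes that ciliated cells also express. Of 29 on the array, the 6 high arrays were the 6 highest for 19, and 27 were well above background on each of them. The list's mean centred signal was 0.75 to 2.92 on those arrays and -1.57 to -0.82 on the other 10. The log2 of the list's summed signal was 6.44 to 6.84 in wild-type with vehicle and 7.05 to 8.87 in wild-type with olaparib. It was 6.74 to 8.69 in BRCA1+/- with vehicle and 6.75 to 8.12 in BRCA1+/- with olaparib. Epcam, an epithelial adhesion molecule, read between 0.77 and 3.43 on the 6 arrays and at most -1.73 elsewhere. Pax8, a transcription factor of oviduct secretory cells, read at least -0.77 on the 6 and at most -0.66 elsewhere. Cdh1, which encodes E-cadherin, overlapped between the 2 sets, with 1.45 or more on the 6 and up to 3.26 elsewhere. The wild-type olaparib differences with the smallest p were those of Spint2 (0.79 ± 0.25), Cdh1 (2.03 ± 0.68), Prss8 (3.29 ± 1.41) and Cldn4 (3.71 ± 1.78). No secretory gene was called by limma (0 of 25), and the median was 2.03. Unadjusted p-values fell under 0.05 for 3, against 4.33% of features. No probe carried the name Ovgp1, the oviduct glycoprotein. The part of oviduct tissue in the members' signals was not tested, and the labels name the tissue as ovary alone.

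Markers of other tissues around the ovary differed in their order over the arrays. For 16 genes of ovarian surface epithelium and mesothelium the 6 arrays were the highest for 5, and the list's mean centred signal overlapped, -0.08 to 1.70 on the 6 and -1.58 to 0.72 elsewhere. This list shares Krt8, Krt18, Krt19 and Muc16 with the secretory list, so the lists are not separate counts. Its summed log2 signal was 6.18 to 7.55 and 4.76 to 8.10 in wild-type rats with vehicle and olaparib, and 5.02 to 7.55 and 5.05 to 7.40 in BRCA1+/- rats. Msln, the mesothelial marker, was highest on WT olaparib 2, at 5.05, which is not among the 6. Limma called 0 of 15 for olaparib in wild-type rats, with 3 at an unadjusted p under 0.05, against 4.33% of features. C3, Lgr5, Wt1 and Krt18 had the smallest p, at 1.79 ± 0.65, 1.36 ± 0.57, 0.85 ± 0.38 and 2.99 ± 1.46. Wt1 and the shared gene Krt18 had the 6 arrays on top, and C3 and Lgr5 did not. Lgr5 was well above background on only 3 arrays. It passed the filter through a single group, so its direction may not be independent of the filter. For 18 adipocyte genes the 6 arrays were the highest for 0. That list read 2.54 and 1.73 on WT olaparib 1 and 2 and between -1.42 and 0.56 on the other 14 arrays. Its summed log2 signal was 3.65 to 4.26 and 3.53 to 6.98 in wild-type rats with vehicle and olaparib, and 4.05 to 4.83 and 3.97 to 4.65 in BRCA1+/- rats. Limma called 0 of 15 adipocyte genes for olaparib in wild-type rats, with 6 at an unadjusted p under 0.05, against 4.33% of features. Among the 6 were Acvr1c, Lep, Thrsp and Adipoq (3.03 ± 0.85, 3.19 ± 1.04, 4.28 ± 1.53 and 5.22 ± 2.04). Lep was well above background on only 5 arrays and passed the filter through a single group. Its direction and its unadjusted p may therefore not be independent of the filter. For 13 smooth muscle genes the 6 arrays were the highest for 2, with a summed log2 signal of 6.20 to 7.15 and 6.55 to 7.45 in wild-type rats and 6.34 to 8.03 and 6.66 to 8.02 in BRCA1+/- rats. Limma called 0 of 12 in that comparison, and 0 had an unadjusted p under 0.05. Synpo2, Myh11, Myocd and Cnn1 differed by 0.75 ± 0.40, 0.53 ± 0.37, 0.54 ± 0.48 and 0.69 ± 0.64.

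The genes of follicle and steroid cells did not follow the members. For 21 such genes the 6 arrays were the highest for 0, and the list's mean centred signal was -0.51 to 0.37 on the 6 and -0.56 to 0.51 on the other 10. For olaparib in wild-type rats its median was -0.07, with 0 of 21 called by limma and 0 at an unadjusted p under 0.05. The smallest p belonged to Cyp17a1, Insl3, Inha and Cyp19a1, at 3.44 ± 1.70, 0.83 ± 0.49, -0.38 ± 0.26 and 1.17 ± 0.82. Foxl2, Amh, Fshr, Gdf9 and Zp3 differed by 0.14 ± 0.24, 0.092 ± 0.49, -0.052 ± 0.33, -0.16 ± 0.41 and 0.0046 ± 0.35.

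**Figure D4:**
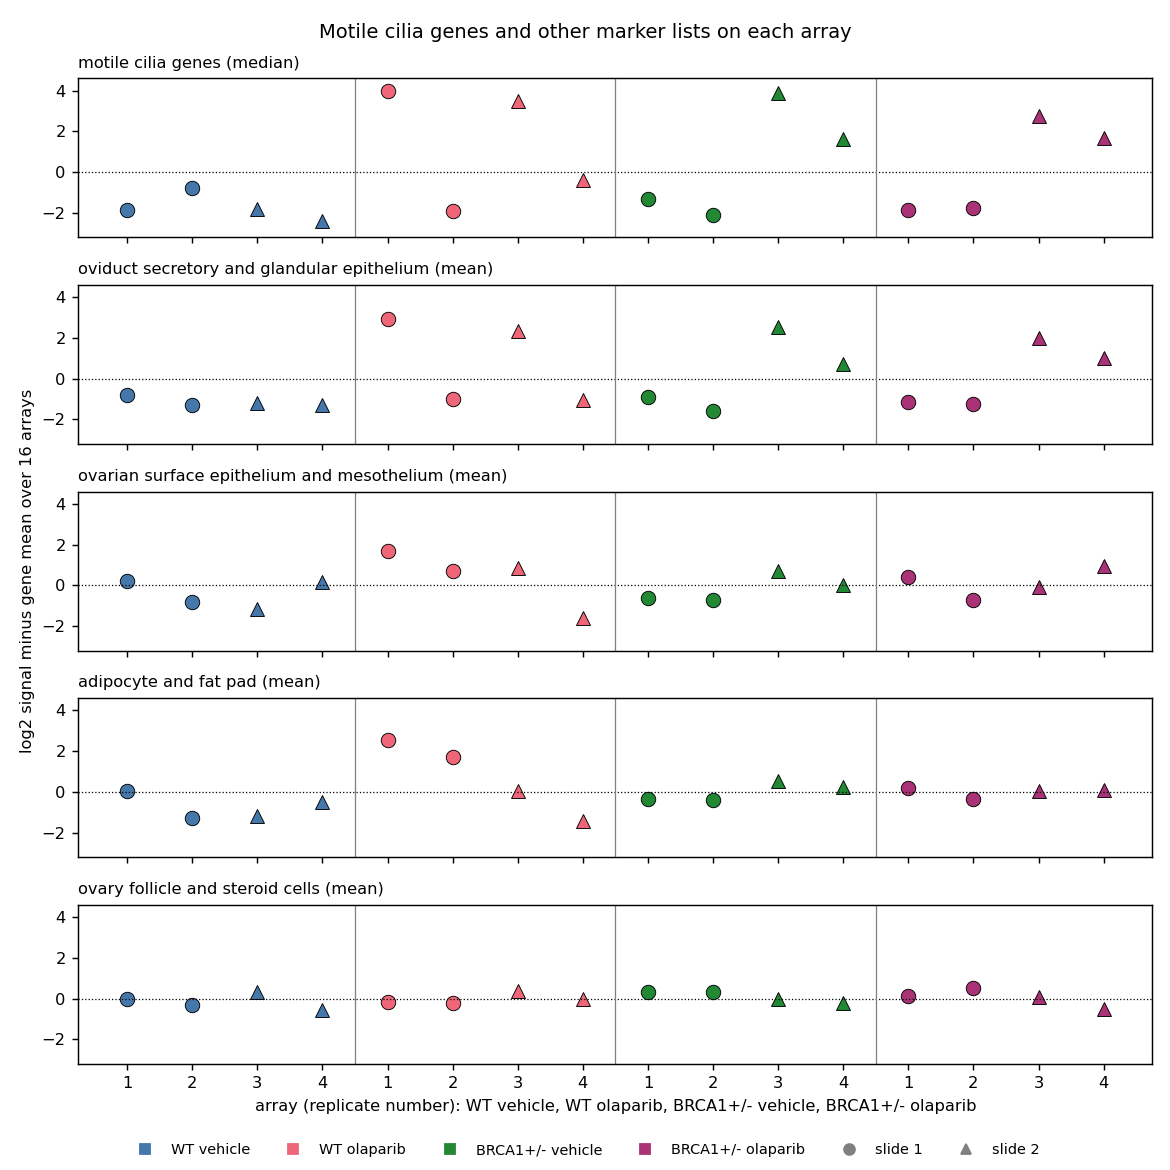
Log2 signal minus each gene's mean over 16 arrays, summarised per array as the median of the 31 motile cilia genes (top) and as the mean of 4 other marker lists, with colours for groups, circles for slide 1 and triangles for slide 2. The secretory epithelium panel rises on the same 6 arrays as the top panel, the adipocyte panel on WT olaparib 1 and 2, and the follicle and steroid panel stays between -0.56 and 0.51.

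The probes lie on many chromosomes. For 30 members the files place the probe in rn4, on 15 named chromosomes with 4 members on chromosome 10 and 1 on unassigned sequence. Tekt1 lies at chr10:59229122-59232111, Tekt4 at chr10:14726997-14727056 and Cfap52 at chr10:54657799-54657858. No annotation of that build was used here, so the exons or untranslated regions under the probes are not named.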

How the data were processed

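Ovary RNA (RNeasy kit, Low Input Quick Amp labelling, per the labels' protocols) was hybridised to single-colour rat arrays of 62976 spots. The intensity values are processed signals, background-subtracted and detrended with Feature Extraction 10.7.1.1 per the file headers (10.7 per the submitters' processing notes). The authors' deposited value table held log2 values equal, up to a constant per array, to log2 of those signals, and served as an alternative.

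Spots of a probe were averaged, 12 probes flagged as outliers were left out, and log2 processed signals were set relative to each array's 75th percentile. Probes well above background on at least 3 of 4 arrays of a group were kept (26820 probes, 20183 features), with the probe of the highest mean for each gene. All 16 arrays were fitted by group with limma 3.58.1 in R 4.3.3 (12 residual degrees of freedom, Benjamini-Hochberg adjustment over all features). The number of arrays limits the precision. A fold against a group below background used the lowest signal well above background on each array as the bound of that group. The brighter group entered with its signals as read, also on arrays not well above background, so such a fold is not a strict minimum. The fit was tested on simulated data with independent features and the same spread in every group. The members moved together and differed in spread between groups, so that test does not carry over to them.

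The members and the lists were chosen with earlier results of these data known. All members are named, with full values for 1 to 4 of each role, and from every other list the 4 genes with the smallest wild-type olaparib p, besides a few regulators and markers named for their role. The labels number the ovary samples and do not say that each came from its own rat, so p-values measure the spread between these samples, which may be technical. Alternatives covered the value table, quantile normalization, normexp with an offset of 50, filters, probe choice, slide and replicate blocks, and leaving out each array.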

Additional observations from a re-analysis of the deposited data

Results flagged for a closer look

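In 124 sets of 4 arrays (each of the 31 members in each group), 1 array lay far from the other 3 for a pair of members. Independent sets would give about 1 in 20 by chance, but these sets share arrays and their genes moved together. The count of 2 of 124 therefore cannot be set against chance. Rsph1 read -0.32 on WT vehicle 2 and at most -1.78 on the other wild-type vehicle arrays, and that gap was 0.907 of the group's range, above the 95% critical value of Dixon's test for 4 samples. Lrrc23 read -2.11 on the same array and at most -3.93 on the others, a gap of 0.874 of the range.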

How the results depend on the processing

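Across 28 alternatives, 16 of which left out 1 array, limma called 0 members in any comparison at an adjusted p under 0.05, and the smallest adjusted p of a member was 0.432. Every group has the same slides and replicate numbers, so a block leaves each difference as it is (with the replicate block the wild-type olaparib median was 3.09) and can change only its error. With the replicate block 13 members in place of 5 had an unadjusted p under 0.05 for olaparib in wild-type rats, against 7.94% of features, with a smallest adjusted p of 0.614. With slide as a block there were 9, against 5.65% of features, with a smallest adjusted p of 0.806. The labels do not say that a number marks a shared litter or day. Arrays were also correlated on their deviations from the group means. In those values 13 of 24 same-number pairs correlated above 0.1 (-0.44 to 0.71), so the numbers were not taken as a pairing. As a hint from the data alone, 12 of 16 arrays correlated best, among arrays of other groups, with an array of their own number in those values.

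Leaving out the 6 high arrays was chosen after seeing the data. It gave medians of 0.67 for olaparib in wild-type rats, -0.14 for genotype with vehicle and -0.55 for the interaction. Drc1 and Tekt1 then read -0.61 and -0.042 for olaparib in wild-type rats, and Rsph1 0.23 for olaparib in BRCA1+/- rats. Foxj1 and Tekt1 read -0.70 and -0.14 for genotype with vehicle, and Tekt1 0.26 for genotype with olaparib and 0.40 for the interaction. Within slide 1 the genotype median with vehicle was -0.44 (Foxj1 -1.81, Rsph1 -0.27, Tekt1 -0.29) and within slide 2 it was 5.13. With olaparib, slide 2 gave genotype differences of 1.19, 0.51 and 1.44 for Foxj1, Rsph1 and Tekt1. For olaparib in BRCA1+/- rats, Foxj1 was -0.34 and Tekt1 -0.23 within slide 2, and Rsph1 0.23 within slide 1. With normexp Foxj1 was -0.12 and Tekt1 -0.016 there, and Foxj1 was -0.086 with the mean of its probes. With normexp the medians were 1.73 for olaparib in wild-type rats, 1.18 for genotype with vehicle, 0.79 for olaparib over both genotypes and -2.04 for the interaction. Causes were not tested.

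Leaving out single arrays moved the olaparib difference in BRCA1+/- rats between -1.82 and 1.65 for Foxj1, -1.03 and 1.13 for Rsph1, and -0.50 and 0.90 for Tekt1. The genotype difference with olaparib ran from -2.85 to 0.036 for Foxj1 and from -0.995 to 0.42 for Tekt1. The wild-type olaparib median ran from 2.25 to 4.10. Of 31 differences of single members, 19 kept their direction in every setting. Dim signal limits the low arrays: counting members above the lowest signal called well above background gave 24, 27 and 28 in place of 18, 21 and 23 on WT vehicle 3, BRCA1+/- vehicle 2 and BRCA1+/- olaparib 2.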
